A study of Homo sapiens with 16 samples.

Results

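HERPUD1 and 9 other genes of endoplasmic reticulum (ER) associated degradation and the XBP1 branch of the unfolded protein response were followed in 16 mRNA libraries of a gut and liver chip. The genes were taken by symbol from a list of 10 (HERPUD1, SEL1L, SYVN1, DERL1, DERL2, OS9, EDEM1, SELENOS, XBP1 and DNAJB9), and each symbol matched 1 of the 60623 identifiers measured. The list had been drawn up because HERPUD1 was higher with free fatty acid (FFA) in HepG2 cells, so the members were selected on the HepG2 values with FFA, which are given below as a description, with no test. The HepG2 controls were the other side of that comparison, so tests that use them are not independent of the selection.

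Caco-2, a human colon tumour line, stood for the gut, and HepG2, a human liver tumour line, for the liver. Each line was grown in a chamber of a microfluidic device alone (mono-culture) or linked by circulating medium to the other line (co-culture), and each culture was either a control without FFA or received 1 mM FFA, a mixture of palmitic acid with an excess of oleic acid in medium that held fatty acid-free albumin. The 8 groups had 2 libraries each, and the labels do not say whether these came from separate devices. The study's text states that its mRNA-seq was done in repeated, independent experiments. The p values measure the spread between libraries, and how much of that spread is technical was not tested. The labels and the study's text do not give the same length of FFA exposure for these libraries, and an extraction note in the labels names another cell type, which none of the groups contains.

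In the ER, proteins that fail to fold are drawn back through the membrane, tagged with ubiquitin and passed to the proteasome. SYVN1 (HRD1) is the membrane ubiquitin ligase of the best-known route, SEL1L holds it in place, and HERPUD1 is a short-lived membrane protein that joins the complex. OS9 and EDEM1 recognise or trim the sugars of misfolded glycoproteins, DERL1 and DERL2 take part in moving substrates across the membrane, and SELENOS is a selenoprotein that links the DERL proteins to the ATPase that pulls substrates out. XBP1 is a transcription factor whose mRNA is spliced by the stress sensor IRE1 when unfolded proteins accumulate, and DNAJB9 (ERdj4), an ER co-chaperone, is among its known targets. The values here are totals per gene and do not separate spliced from unspliced XBP1 mRNA.

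HERPUD1, XBP1, DNAJB9 and SELENOS are the 4 members whose deposited values were higher in all 4 HepG2 libraries with FFA than in all 4 without, and the bases before their start sites are shown because unfolded-protein response factors bind known elements there. The 250 bases before the RefSeq start are written 5′ to 3′ on the gene's own strand (RefSeq, GRCh38.p14), and capitals mark every exact match, on either strand, to ERSE (CCAAT and CCACG with 9 bases of any kind between them), ERSE-II (ATTGG and CCACG with 1 base of any kind between them), the UPRE core (TGACGTGG) or CCACG alone, the letters that close ERSE and ERSE-II. The windows lie at chr16:56931892-56932141 on the plus strand (HERPUD1), chr22:28800570-28800819 on the minus strand (XBP1, first of 2 RefSeq starts), chr7:108569624-108569873 on the plus strand (DNAJB9) and chr15:101277486-101277735 on the minus strand (SELENOS).
HERPUD1: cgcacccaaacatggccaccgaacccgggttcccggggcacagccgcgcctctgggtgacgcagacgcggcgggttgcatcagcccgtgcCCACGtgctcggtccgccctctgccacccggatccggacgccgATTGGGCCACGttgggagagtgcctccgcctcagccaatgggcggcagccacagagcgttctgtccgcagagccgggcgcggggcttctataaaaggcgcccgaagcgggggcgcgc
XBP1: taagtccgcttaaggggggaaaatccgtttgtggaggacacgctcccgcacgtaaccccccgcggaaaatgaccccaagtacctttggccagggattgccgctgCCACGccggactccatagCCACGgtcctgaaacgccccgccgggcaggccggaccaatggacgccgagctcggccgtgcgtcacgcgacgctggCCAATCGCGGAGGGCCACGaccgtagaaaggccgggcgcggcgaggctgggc
DNAJB9: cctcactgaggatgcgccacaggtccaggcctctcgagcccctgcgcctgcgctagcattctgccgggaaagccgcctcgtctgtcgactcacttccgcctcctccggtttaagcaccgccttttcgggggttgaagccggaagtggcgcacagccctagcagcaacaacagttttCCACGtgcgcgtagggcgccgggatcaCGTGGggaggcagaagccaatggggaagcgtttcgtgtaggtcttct
SELENOS: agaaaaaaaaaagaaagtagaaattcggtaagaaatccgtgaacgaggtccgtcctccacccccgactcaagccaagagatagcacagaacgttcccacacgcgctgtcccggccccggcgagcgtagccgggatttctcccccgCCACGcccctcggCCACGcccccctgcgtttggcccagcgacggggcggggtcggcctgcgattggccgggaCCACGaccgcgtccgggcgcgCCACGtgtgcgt

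The HERPUD1 window held an ERSE-II match from 117 to 107 bases before the start, and the XBP1 window held an ERSE match from 52 to 34 bases before it. Among 35116 promoter windows of all genes, 0.0513% held ERSE-II and 0.0740% held ERSE in the same 250 bases. Windows were searched for 9 members, DERL1 being without one, and no UPRE core was matched in these, against 0.612% of all windows. The shorter CCACG was matched in 33.5% of all windows and in those of HERPUD1, SEL1L, SYVN1, OS9, EDEM1, SELENOS, XBP1 and DNAJB9. These matches describe letters in the sequence, not binding. The elements were known beforehand and the genes were selected. The shares of all windows are therefore given as a base rate only, and no enrichment is read from them.

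The measurement was the number of reads of a gene per 1000000 reads of its library (CPM). Libraries held 49634 to 1657412 reads, and the 2 HepG2 co-culture libraries with FFA were the shallowest of the 16, at 147096 and 49634, so that 3 reads, taken as the floor of detection, stood for 20.4 and 60.4 CPM there against 1.81 to 10.9 CPM elsewhere. Intervals given for single libraries are exact 95% binomial intervals of the share of reads and cover counting error only. Of 10 liver markers, 9 or 10 had a read in each library, at a summed 32358 to 71220 CPM in HepG2 and 8088 to 11203 CPM in Caco-2. Of 10 gut markers, 5 to 9 had a read in Caco-2 libraries (123 to 202 CPM) and 1 to 3 in HepG2 libraries (14.5 to 101 CPM), and CDX1, a defining intestinal transcription factor, was at 0 in all 16 libraries.

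In HepG2, HERPUD1 (chr16:56932142-56944864, plus strand) was present at 181 and 189 CPM in the mono-culture controls and at 360.4 and 477 CPM in the mono-culture libraries with FFA. In co-culture it was at 153 and 148 CPM in the controls and at 551 and 1007 CPM with FFA, the last from 50 reads with an interval of 748 to 1328 CPM. The controls and the FFA libraries did not overlap in either culture, and the group means with FFA were 2.26 times the control mean in mono-culture and 5.18 times in co-culture. On the log2(CPM + 1) scale, used for every log2 difference given, the FFA difference was 1.16 (limma SE 0.27) in mono-culture and 2.30 (SE 0.27) in co-culture, where it was 2.74 without FFA replicate 1 and 1.87 without FFA replicate 2. Each chamber held a single line, and the RNA came from the whole chamber. A larger share of cells with high HERPUD1 and a rise in every cell therefore cannot be told apart.

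**Figure D1:**
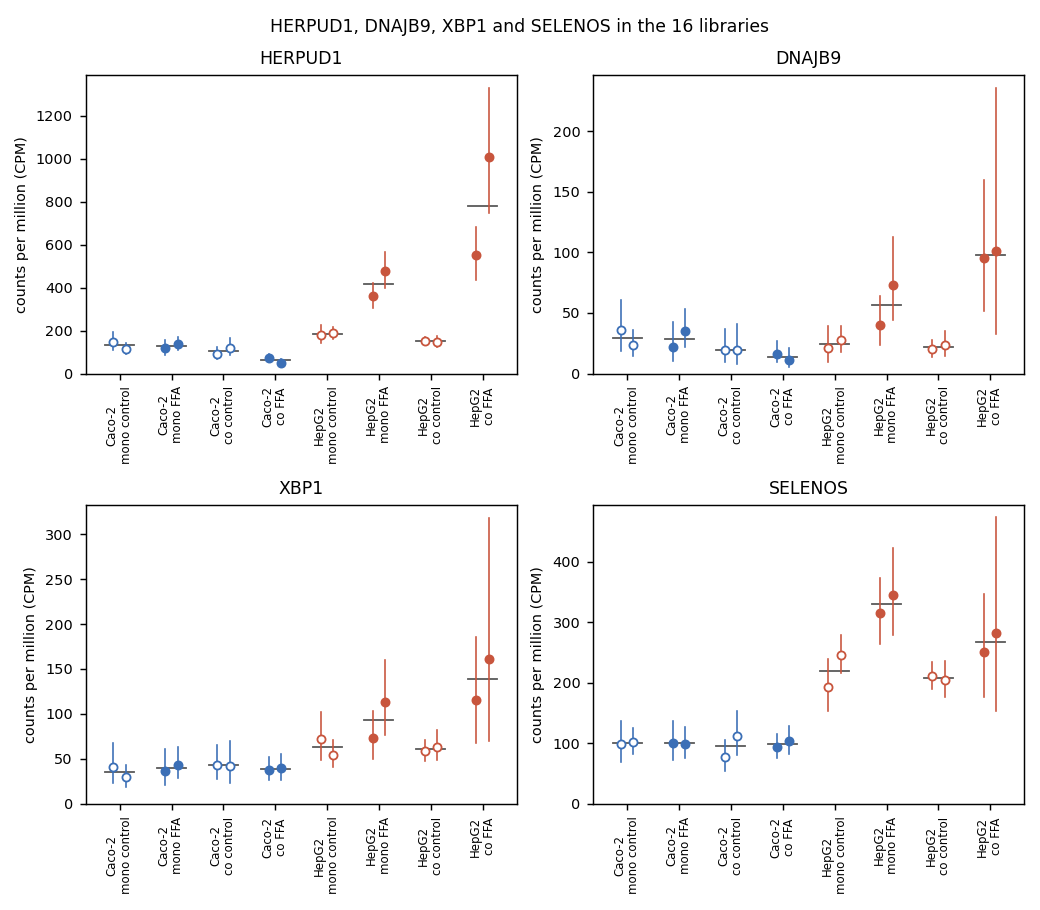
CPM of HERPUD1, DNAJB9, XBP1 and SELENOS in each of the 16 libraries, by line, culture (mono or co) and treatment. Points are single libraries (blue for Caco-2, red for HepG2, open for control, filled for FFA) with exact 95% binomial intervals. Horizontal lines are group means of 2 libraries. In these deposited values the 4 HepG2 libraries with FFA lie above the 4 HepG2 controls in each panel. SELENOS in co-culture does not keep that order on average under TMM or median-ratio scaling.

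Across the 8 groups HERPUD1 was highest in HepG2 co-culture with FFA (779 ± 323 CPM, SD, n = 2), followed by HepG2 mono-culture with FFA (418 ± 82.2), HepG2 mono-culture control (185 ± 5.37) and HepG2 co-culture control (150.3 ± 3.28). None of these 4 groups overlapped its neighbour in the order, although the lowest HepG2 control library, at 148.0 CPM, stood next to the highest Caco-2 library, at 147.8 CPM. Below them came Caco-2 mono-culture control (131 ± 23.1), mono-culture with FFA (128 ± 13.8), co-culture control (107 ± 20.1) and co-culture with FFA (61.8 ± 14.2). The first 3 of these Caco-2 groups overlapped, and the last lay below them.

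DNAJB9 (chr7:108569867-108574850, plus strand) had the same order of HepG2 groups in FFA and control as HERPUD1, at lower counts. It was at 20.9 and 27.4 CPM in mono-culture controls, 40.0 and 72.8 CPM in mono-culture with FFA, 19.9 and 23.2 CPM in co-culture controls, and 95.2 and 101 CPM in co-culture with FFA. Both last values rested on few reads, 14 and 5, with intervals of 52.0 to 160 and 32.7 to 235 CPM. The log2 difference with FFA was 1.14 (SE 0.39) in mono-culture and 2.14 (SE 0.39) in co-culture.

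XBP1 (chr22:28794555-28800597, minus strand) was at 71.9 and 54.7 CPM in HepG2 mono-culture controls and at 73.0 and 113 CPM with FFA, so that the groups were set apart by about 1 CPM at their nearest libraries. In co-culture it was at 58.5 and 63.4 CPM in controls and at 116 and 161 CPM with FFA, from 17 and 8 reads. The log2 difference with FFA was 0.53 (SE 0.32) in mono-culture and 1.15 (SE 0.32) in co-culture.

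SELENOS (chr15:101270817-101277500, minus strand) was at 193 and 246 CPM in HepG2 mono-culture controls and at 316 and 346 CPM with FFA. In co-culture it was at 212 and 205 CPM in controls and at 252 and 282 CPM with FFA. Its log2 difference with FFA was 0.60 (SE 0.18) in mono-culture, and 0.35 (SE 0.18) in co-culture, where it turned to -0.33 under TMM scaling and -0.06 under median-ratio scaling, which set the libraries against each other by the bulk of genes and not by their totals. Among the 4, SELENOS alone had a larger difference in mono-culture than in co-culture.

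Among the genes of the ligase complex, SEL1L (chr14:81471547-81533853, minus strand) was at 31.3 and 34.8 CPM in HepG2 mono-culture controls and 29.1 and 40.0 CPM with FFA, which overlapped. In co-culture it was at 26.6 and 28.6 CPM in controls and at 47.6 and 80.6 CPM with FFA, from 7 and 4 reads. The log2 difference was 0.05 (SE 0.39) in mono-culture and 1.14 (SE 0.39) in co-culture.

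SYVN1 (chr11:65121780-65134532, minus strand) is reported as uncertain, because 1 of its annotated transcripts shares 130 exon bases with FAU, a highly expressed gene on the same strand that encodes a ribosomal protein fused to a ubiquitin-like protein. SYVN1 was at 1123 to 1694 CPM over the 16 libraries and FAU at 1289 to 1931 CPM. In each library SYVN1 was 84.2% to 96.9% of FAU, and the log2 values of the pair had a Pearson r of 0.95 across the 16 libraries, which share depth and base composition within each library. Reads of SYVN1 and FAU cannot be told apart in these gene totals, so the SYVN1 values are not read as levels of the ligase, and counts that include SYVN1 are not evidence about it. In HepG2 its log2 difference with FFA was 0.05 (SE 0.11) in mono-culture and -0.31 (SE 0.11) in co-culture.

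**Figure D2:**
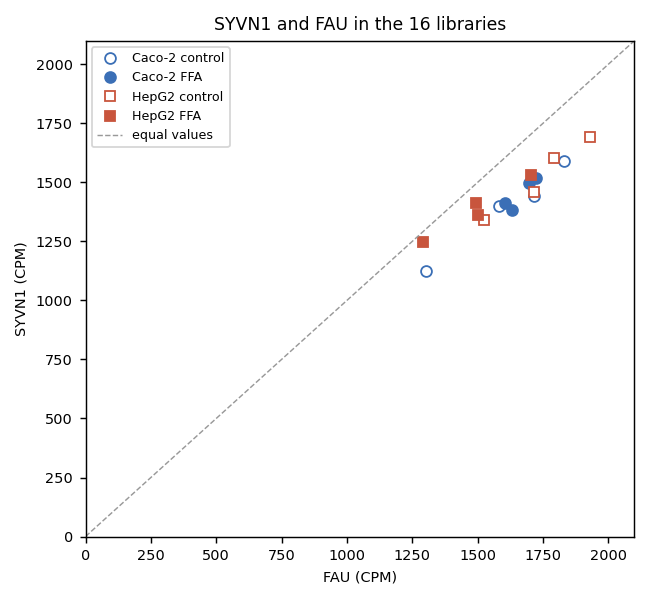
SYVN1 (vertical axis) against FAU (horizontal axis), both in CPM, with 1 point per library (blue circles, Caco-2; red squares, HepG2; open, control; filled, FFA). All 16 points lie just under the dashed line of equal values, SYVN1 being 84.2% to 96.9% of FAU.

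The lectin OS9 (chr12:57693841-57728342, plus strand) was at 92.9 and 65.5 CPM in HepG2 mono-culture controls and 115 and 72.8 CPM with FFA, and at 87.5 and 67.7 CPM in co-culture controls and 136 and 141 CPM with FFA. Only the co-culture pair of groups did not overlap, with a log2 difference of 0.84 (SE 0.31) against 0.23 (SE 0.31) in mono-culture. DERL2 (chr17:5471254-5486811, minus strand) overlapped in both cultures, at log2 differences of 0.08 (SE 0.30) and 0.43 (SE 0.30). DERL1 ranged from 6.80 to 47.3 CPM over the HepG2 libraries with FFA, on 1 to 13 reads, against 16.3 to 22.5 CPM in controls. Other genes that share annotated exon bases with a member were low, such as MIS12 with DERL2 (0 to 21.2 CPM) and TBC1D31 with DERL1 (0 to 8.22 CPM).

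EDEM1 (chr3:5187646-5219958, plus strand), a mannosidase-like protein that hands glycoproteins to degradation, was hardly sampled. It had 0 to 4 reads per library, a read in 9 of 16 libraries, and at most 5.65 CPM. In HepG2 co-culture it had 4 and 3 reads in the controls and 0 in both libraries with FFA, where the floor of 20.4 and 60.4 CPM lay above every level seen, so a difference was not detectable at this depth.

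**Figure D3:**
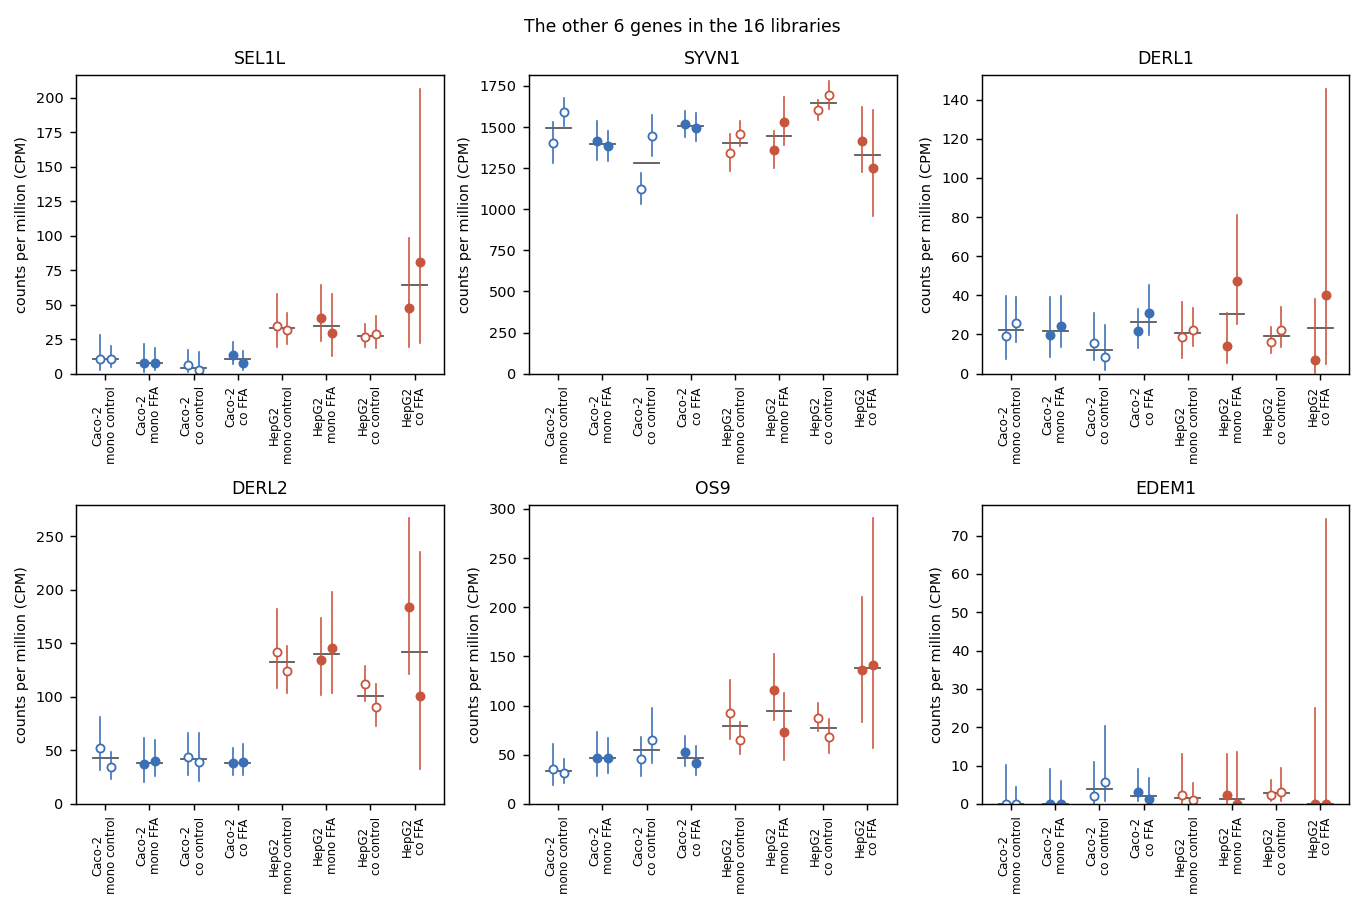
CPM of SEL1L, SYVN1, DERL1, DERL2, OS9 and EDEM1 in each of the 16 libraries, drawn as in the plot of HERPUD1 levels. Blue is Caco-2, red HepG2, open control and filled FFA. Bars are exact 95% binomial intervals, and lines are means of 2 libraries. DERL2 lies higher in each HepG2 library than in each Caco-2 library, SYVN1 stays between 1123 and 1694 CPM, and the intervals of the HepG2 co-culture libraries with FFA are the widest.

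Counted over the 10 members, 4 were higher without overlap with FFA in HepG2 mono-culture (HERPUD1, SELENOS, XBP1 and DNAJB9), where 20.2% of all 14430 genes tested were. In HepG2 co-culture 6 were higher (those 4 with SEL1L and OS9), against 17.4% of all genes, and SYVN1 and EDEM1 were lower, against 25.2%. With both cultures together the 4 named first were higher, against 4.16%, and 0 were lower, against 3.36%. As these contrasts chose the list, nothing is read from those counts. The median log2 difference of the members averaged over culture was 0.51, beside -0.07 for all genes. Under TMM scaling these medians were 0.034 and -0.39, and under median-ratio scaling 0.22 and -0.25.

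In HepG2 co-culture with FFA the median of all genes was itself displaced, at -0.26 in the deposited scaling, -0.60 under TMM scaling and -0.45 under median-ratio scaling. Relative to the displaced median of the deposited scaling, HERPUD1 differed by 2.57, DNAJB9 by 2.40 and XBP1 by 1.42 on the log2 scale. The 2 libraries of this group had a read for 8536 and 5900 genes, against 9633 to 14066 in the other libraries. How far genes without a read displaced the median was not tested, so the values relative to it are not corrected differences. HERPUD1 kept a positive difference under the other scalings tried, from 1.62 to 2.27 in co-culture and 0.90 to 1.08 in mono-culture, and so did DNAJB9 and XBP1. Depth moved with the same group, and so did the summed liver markers, at 49831 and 71220 CPM with FFA against 38499 and 42976 CPM in the co-culture controls. Of the gut markers 9 of 10 were at 0 in both HepG2 co-culture libraries with FFA. The sums of 61.2 and 101 CPM there were VIL1 alone, which had a read in all 16 libraries of both lines. With floors of 20.4 and 60.4 CPM, the zeros do not show that gut transcripts were absent. The part of depth, scaling and liver markers in the HepG2 differences was not tested.

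**Figure D4:**
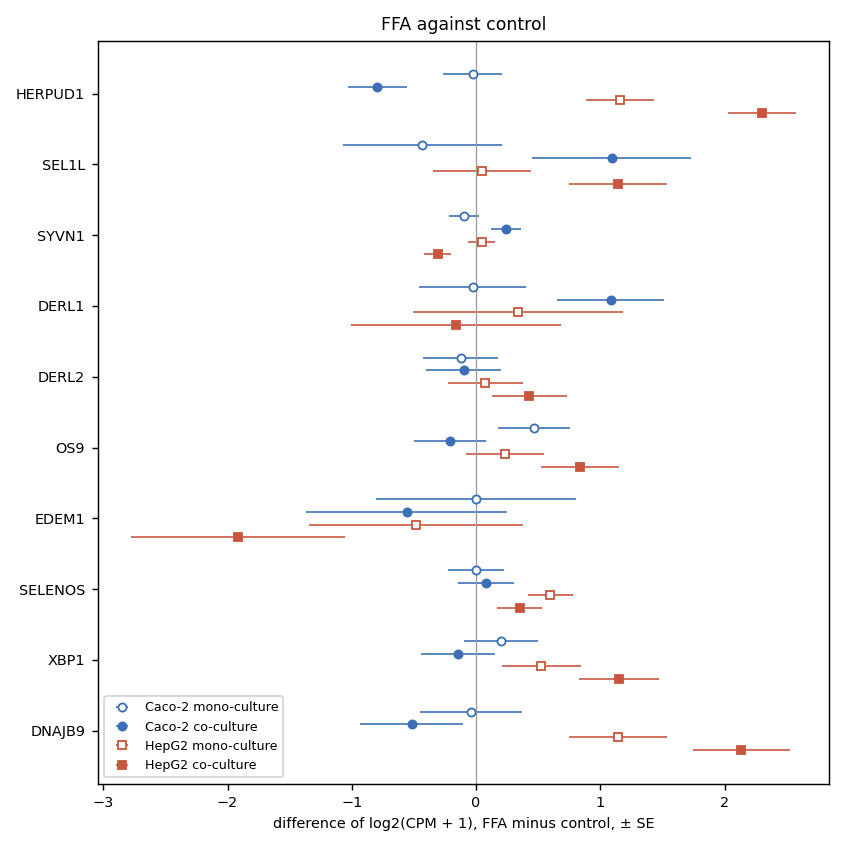
Difference of log2(CPM + 1) between FFA and control (horizontal axis) for each of the 10 genes, with limma standard errors (Caco-2, blue circles; HepG2, red squares; open, mono-culture; filled, co-culture; 2 libraries per group). HERPUD1 has the largest HepG2 value, 2.30 in co-culture, and a Caco-2 value of -0.79 in the same culture, the latter not past the adjusted threshold.

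Genes of the same pathway outside the list were taken from a list of 30 other ERAD genes and a list of 12 XBP1-branch genes. With FFA in HepG2, in the deposited scaling, 11 of the 29 ERAD genes tested were higher without overlap in each culture, and 5 were lower in mono-culture and 3 in co-culture, where the shares of all genes were 20.2% and 17.4% higher and 12.3% and 25.2% lower. In the XBP1 branch, 7 of 12 were higher in mono-culture, 6 in co-culture, and 0 lower. Over both cultures together, 2 of the 29 ERAD genes and 1 of the 12 XBP1-branch genes were higher without overlap, against 4.16% of all genes. In each list 0 were lower, against 3.36%. The medians of the log2 differences averaged over culture were 0.23 for the ERAD list and 0.50 for the XBP1 branch. For all genes the median was -0.07, and these medians are in the deposited scaling only. The co-culture shares of all genes include genes with no read in the shallow FFA libraries. Both lists were chosen with earlier results of these data known, so nothing is read from these counts or medians.

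PDIA6, an ER disulfide isomerase and the most abundant gene of the XBP1 branch list, was at 758 to 877 CPM in the 4 HepG2 controls and at 1053 to 1632 CPM in the 4 libraries with FFA. The ER chaperone HYOU1 was at 105 to 135 CPM in HepG2 controls, at 144 and 80.0 CPM with FFA in mono-culture, and at 211 and 201 CPM with FFA in co-culture. DNAJB11, a co-chaperone of BiP, had log2 differences of 0.86 (SE 0.35) in mono-culture and -0.01 (SE 0.35) in co-culture, and SERP1, which protects newly made membrane proteins, 0.10 (SE 0.23) and 0.57 (SE 0.23).

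In the ERAD list the most abundant genes were SELENOK, SDF2L1, AUP1 and UBXN4. AUP1, which recruits a ubiquitin-conjugating enzyme to the ER membrane, was at 144 to 177 CPM in the HepG2 controls and at 181 to 265 CPM with FFA. SDF2L1, a partner of ER DNAJ proteins, had log2 differences of 0.30 (SE 0.24) and 0.73 (SE 0.24) in mono-culture and co-culture. The selenoprotein SELENOK (0.04 and -0.13, SE 0.31) and the membrane anchor UBXN4 (0.15 and 0.30, SE 0.23) differed by less than 2 SE in both cultures.

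The Caco-2 values with FFA were not those that the list was drawn up from, and were tested. As earlier results of these data were known when the members were chosen, full independence of these tests is not shown. With limma and Benjamini-Hochberg adjustment over 15454 genes, 0 of 10 members passed an adjusted p of 0.05 in mono-culture (0.00647% of all genes did), in co-culture (0%), averaged over culture (0%) or in the interaction of FFA and culture (0%). At an unadjusted p under 0.05 there were 0, 2, 1 and 1 of 10 members in those contrasts, beside 896, 754, 750 and 776 of all 15454 genes, and edgeR and DESeq2 on the reads also called 0 in each. HERPUD1 was at 148 and 115 CPM in Caco-2 mono-culture controls and 119 and 138 CPM with FFA, which overlapped, at a log2 difference of -0.03 (SE 0.24, adjusted p = 1 by limma). In Caco-2 co-culture it was at 93.1 and 122 CPM in controls and 71.8 and 51.7 CPM with FFA, which did not overlap, at -0.79 (SE 0.24, unadjusted p = 0.00484 and adjusted p = 0.862 by limma).

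Other members in Caco-2 co-culture went different ways. DERL1 had the other small unadjusted p, with 15.9 and 8.48 CPM in controls and 21.6 and 30.8 CPM with FFA, a log2 difference of 1.08 (SE 0.43, adjusted p = 0.862 by limma). XBP1 (43.6 and 42.4 CPM against 38.0 and 39.4 CPM with FFA) and DNAJB9 (19.8 and 19.8 against 16.4 and 11.1 CPM with FFA) had log2 differences of -0.15 (SE 0.30) and -0.52 (SE 0.41). Without overlap, 3 members were higher (SEL1L, DERL1 and the uncertain SYVN1), against 15.2% of all genes, and 4 were lower (HERPUD1, DERL2, XBP1 and DNAJB9), against 14.9%. In mono-culture 2 members did not overlap, OS9 with higher and SEL1L with lower values, against 26.3% of all genes in either direction. Over both cultures 0 members were higher (1.15% of all genes) and 0 lower (0.744%) without overlap. Of the 30 other ERAD genes and 12 XBP1-branch genes, 0 passed in any Caco-2 FFA contrast.

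The second question of the design is whether linking the lines changed these genes. In Caco-2, HERPUD1 had its largest difference here. With FFA it was at 119 and 138 CPM in mono-culture and at 71.8 and 51.7 CPM in co-culture, a mean in co-culture of 0.481 times that in mono-culture and a log2 difference of -1.06 (SE 0.24, unadjusted p = 0.000529), which did not pass after adjustment (adjusted p = 0.170 by limma). Averaged over treatment the difference was -0.68 (SE 0.17, adjusted p = 0.105 by limma). Whether these values pass depends on the processing. With FFA, HERPUD1 passed with a floor of 10 CPM on group means (adjusted p = 0.0214 by limma) and by edgeR (adjusted p = 0.00351) but not by DESeq2 (adjusted p = 0.142), and over all alternatives its adjusted p ranged up to 0.509.

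DNAJB9, which is next to HERPUD1 in this contrast, was lower in all 4 Caco-2 co-culture libraries (11.1 to 19.8 CPM) than in all 4 mono-culture libraries (22.3 to 35.6 CPM). With FFA its mean in co-culture was 0.478 times that in mono-culture (log2 SE 0.41, adjusted p = 0.562 by limma), and its log2 difference was -0.76 (SE 0.29, adjusted p = 0.336 by limma) averaged over treatment. It was the only member lower without overlap over all 8 libraries, where 1.68% of all genes were, and EDEM1, with 1 to 3 reads in co-culture libraries and 0 in mono-culture libraries, was the only one higher, against 4.25%. By limma 0 of 10 members passed without FFA (0.0971% of all genes did), with FFA (0.0971%) or averaged over treatment (0.453%), with 2, 2 and 3 members at an unadjusted p under 0.05, beside 1594, 1202 and 1820 of all 15454 genes. Of the tools applied to the reads, edgeR called 0, 1 and 1 members and DESeq2 0, 0 and 1, in each case HERPUD1. The shares of all genes that these tools called are not given here.

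In co-culture without FFA, OS9, EDEM1 and XBP1 were higher without overlap in Caco-2 (22.0% of all genes) and SEL1L, DERL1 and DNAJB9 lower (9.60%). With FFA 4 members did not overlap, SYVN1 and EDEM1 with higher and HERPUD1 and DNAJB9 with lower values in co-culture, against 34.6% of all genes in either direction. SELENOS was at 98.5 to 102 CPM in the 4 mono-culture libraries and 77.3 to 113 CPM in the 4 co-culture libraries. XBP1 was at 29.4 to 43.4 CPM in mono-culture and 38.0 to 43.6 CPM in co-culture, and DERL2 at 34.1 to 52.0 and 38.0 to 43.6 CPM. The sum of the 10 liver markers moved with culture, at 8088 to 9471 CPM in Caco-2 mono-culture and 10523 to 11203 CPM in Caco-2 co-culture, as did that of the gut markers, at 123 to 148 and 180 to 202 CPM. Their part in the culture differences was not tested.

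HYOU1, the XBP1-branch chaperone named above for HepG2, was at 19.3 to 29.4 CPM in Caco-2 mono-culture, 21.8 and 25.4 CPM in co-culture controls and 13.3 and 7.39 CPM in co-culture with FFA. Its log2 difference between the cultures with FFA was -1.12 (SE 0.42, adjusted p = 0.546 by limma). Of the other abundant list genes with FFA, PDIA6 had group means of 290 CPM in mono-culture and 285 CPM in co-culture. SELENOK had 333 and 319 CPM, AUP1 109 and 94.6, SERP1 151 and 124, and DNAJB11 64.2 and 55.1. UBXN4, at 61.1 and 88.3 CPM, and SDF2L1, at 35.1 and 41.8 CPM, had higher means in co-culture. None of the 30 other ERAD genes or 12 XBP1-branch genes passed in a Caco-2 culture contrast by limma.

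In HepG2, 0 of 10 members passed by limma between co-culture and mono-culture without FFA, and 0% of the 14430 genes tested did. There were also 0 members at an unadjusted p under 0.05 and 0 called by edgeR or DESeq2. The limma fit shares its estimate of spread over all HepG2 groups, including the shallow co-culture libraries with FFA. Small differences may therefore have been missed. HERPUD1 was at 181 and 189 CPM in mono-culture and 153 and 148 CPM in co-culture, a log2 difference of -0.30 (SE 0.27). Although HERPUD1, SEL1L and DERL2 were lower without overlap (12.4% of all genes) and SYVN1 and EDEM1 higher (20.5%), the smallest unadjusted p of these was 0.0592, for SYVN1. With FFA, given as a description, HERPUD1 was higher in co-culture than in mono-culture by 0.84 (SE 0.27), DNAJB9 by 0.85 (SE 0.39), SEL1L by 0.84 (SE 0.39), OS9 by 0.59 (SE 0.31) and XBP1 by 0.58 (SE 0.32), and SELENOS was lower, at -0.31 (SE 0.18). These 5 higher members stand beside 12.8% of all genes and the 1 lower member beside 14.3%. Over both treatments 0 were higher (1.12%) and 0 lower (1.19%) without overlap.

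The lines themselves differed in the level of several members without FFA. These tests use the HepG2 controls, which took part in the comparison that chose the list. In mono-culture controls, 3 of 10 members were higher in HepG2 than in Caco-2 by limma over all 16 libraries, against 4.78% of 17544 genes called higher. DERL2 was at 142 and 124 CPM in HepG2 and 52.0 and 34.1 CPM in Caco-2, a log2 difference of 1.63 (SE 0.31, adjusted p = 0.00328 by limma). SELENOS was at 193 and 246 CPM against 98.5 and 102 CPM (1.11, SE 0.21, adjusted p = 0.00329 by limma). OS9 was at 92.9 and 65.5 CPM against 35.6 and 31.7 CPM (1.19, SE 0.31, adjusted p = 0.0244 by limma), a call that was lost without either Caco-2 library or without HepG2 replicate 1, at adjusted p of 0.0559, 0.0924 and 0.189.

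In co-culture controls, 3 of 10 members were again higher in HepG2, against 3.98% of all genes. SEL1L was at 26.6 and 28.6 CPM in HepG2 and at 5.94 and 2.82 CPM in Caco-2, the latter from 3 and 1 reads, a log2 difference of 2.47 (SE 0.47, adjusted p = 0.00379 by limma). SELENOS differed by 1.15 (SE 0.21, adjusted p = 0.00290 by limma). DERL2 was at 112 and 90.9 CPM against 43.6 and 39.6 CPM (1.26, SE 0.31, adjusted p = 0.0185 by limma), and its call was lost without Caco-2 replicate 2 or without either HepG2 library, at adjusted p of 0.0754, 0.0998 and 0.0556.

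No member was called lower in HepG2 in either culture, where 5.77% and 5.92% of all genes were. Without SYVN1 the counts were 3 of 9 in both cultures. At an unadjusted p under 0.05 there were 5 members in mono-culture and 4 in co-culture (3 without SYVN1), beside 3854 and 3661 of all 17544 genes. Without overlap 7 members were higher in HepG2 in mono-culture controls (21.0% of all genes) and 9 in co-culture controls, 8 without SYVN1 (22.2%), and 0 were lower (23.2% and 25.7%). HERPUD1 was higher in HepG2 controls by 0.50 (SE 0.28) in mono-culture and 0.49 (SE 0.28) in co-culture, at adjusted p of 0.326 and 0.344 by limma, while edgeR called it in both (adjusted p = 0.0166 and 0.00688). DNAJB9 overlapped between the lines in mono-culture controls, at 20.9 and 27.4 CPM in HepG2 against 35.6 and 23.5 CPM in Caco-2, with log2 differences of -0.26 (SE 0.41) in mono-culture and 0.11 (SE 0.41) in co-culture.

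**Figure D5:**
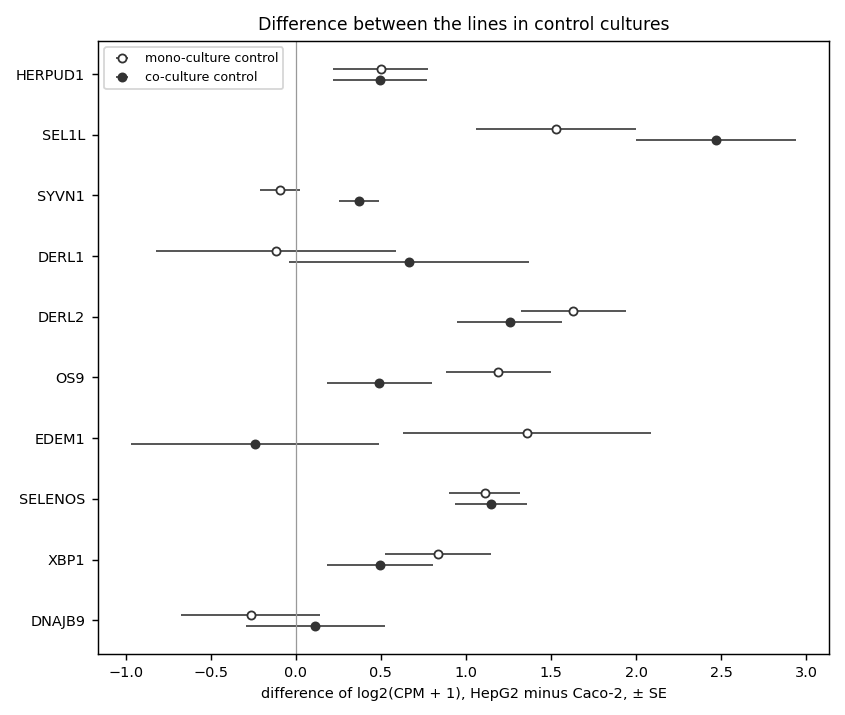
Difference of log2(CPM + 1) between HepG2 and Caco-2 control libraries (horizontal axis, positive where HepG2 is higher) for each of the 10 genes, with limma standard errors (open, mono-culture; filled, co-culture; 2 libraries per group). SEL1L, DERL2 and SELENOS lie above 1 in both cultures, and HERPUD1 at 0.50 and 0.49.

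Some other genes of the pathway also differed between the lines. In mono-culture controls, 5 of 30 other ERAD genes were higher in HepG2 by limma (ERLEC1, BAG6, SDF2L1, UBXN4 and DNAJC10), and 4 of 12 XBP1-branch genes (CRELD2, SSR1, HYOU1 and PDIA6). In co-culture controls it was 5 ERAD genes (ERLEC1, UBE2G2, SDF2L1, UBXN4 and DNAJC10) and 5 XBP1-branch genes (CRELD2, DNAJB11, SSR1, HYOU1 and PDIA6), and 0 of either list were called lower in either culture. Of all genes 4.78% and 3.98% were called higher and 5.77% and 5.92% lower. By sign alone 6 ERAD genes in mono-culture and 11 in co-culture had lower means in HepG2, of which 2 and 3 did not overlap, and 1 XBP1-branch gene was lower without overlap in co-culture. Those outside the most abundant genes are named here because their values were seen to pass. PDIA6 was at 758 and 798 CPM in HepG2 mono-culture controls against 273 and 309 CPM in Caco-2 (1.42, SE 0.14, adjusted p = 1.49e-05 by limma), and SDF2L1 at 197 and 309 CPM against 60.2 and 40.0 CPM (2.31, SE 0.35, adjusted p = 0.000539 by limma).

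Among the members themselves, the values of DNAJB9 lay nearest to those of HERPUD1 in each line, with a Pearson r of 0.93 across the 8 Caco-2 libraries and 0.96 across the 8 HepG2 libraries on the log2 scale. XBP1 had an r of 0.95 in HepG2 and 0.05 in Caco-2. Among genes averaging 50 CPM or more in a line, the 5 most like HERPUD1 in Caco-2 were CCT8 (r = 0.96), PTGES3 (0.95), SMN1 (0.94), PSMD14 (0.92) and HSPA5 (0.92). HSPA5 is the ER chaperone BiP, CCT8 a chaperonin subunit, PTGES3 a co-chaperone of HSP90 and PSMD14 a proteasome subunit, while SMN1 has a near-identical copy and is uncertain.

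In HepG2 the 5 most like HERPUD1 were PSAT1 (0.99), AC099811.2, MLX, RAB5C and PSMF1 (each 0.98). PSAT1, an enzyme of serine synthesis, ranged from 136 to 524 CPM, and AC099811.2 and RAB5C had the same lowest and highest values, 32.5 and 121 CPM, so their reads may not be separate. An r above 0.9 was reached by 11 of 1922 genes in Caco-2 and by 93 of 2028 in HepG2, where the libraries with FFA share treatment and, in co-culture, low depth. These correlations describe 8 libraries each and carry no test.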

How the data were processed

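Polyadenylated RNA of the 16 libraries was reverse-transcribed, amplified by PCR and sequenced on an Oxford Nanopore device. Per the labels, reads were mapped to GRCh38, with minimap2 2.22 named in the processing notes. The study's mRNA-seq methods describe other tools, and which steps made these values is not given in the sources used here. The authors deposited values named TPM that are whole multiples of 1 step in each library (100% of values up to 50 reads within 0.05 of a read), and these deposited values were therefore treated as CPM, with read totals recovered from the step.

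A gene was kept where any group averaged 1 CPM or more, values were taken as log2(CPM + 1), and limma 3.58.1 in R 4.3.3 was fitted with trended prior variance, over the 8 libraries of a line or all 16 for contrasts between lines, with Benjamini-Hochberg adjustment over all genes tested. All 10 members passed the filter in each fit. Recovered reads were also tested with edgeR 4.0.16 (quasi-likelihood) and DESeq2 1.42.0. Further alternatives were a pseudocount of 0.1, no filter, a floor of 10 CPM, quantile, TMM and median-ratio scaling, constant prior variance, the replicate number as a block and leaving out each library. The scripts were tested on simulated data.

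The members and both pathway lists were chosen with earlier results of these data known. Named beyond the members were the 4 genes of each list with the highest mean CPM, list genes with an adjusted p under 0.05 within a line (there were 0), and the 5 genes with the highest r with HERPUD1 in each line. List genes called between the lines were named as well, after their values were seen. So were some genes that share exon bases with a member, and some markers of the lines. Of 60623 identifiers, 60295 (99.459%) were in GENCODE 44 on GRCh38, which gave gene positions and shared exons. A RefSeq promoter window was found for 9 of the 10 members, all but DERL1. The 2 libraries of each group differed by more than sampling noise (chi-square per degree of freedom 1.52 to 2.85).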

Additional observations from a re-analysis of the deposited data

Results flagged for a closer look

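Under the same contrast, both libraries of one line lay on one side of their controls and both libraries of the other line on the opposite side for 4 members with FFA in co-culture and 2 members in co-culture against mono-culture with FFA. The differences between the lines were not tested, and HepG2 values with FFA chose the list. How many of all genes had such opposite values was not counted, so nothing is read from the counts of 4 and 2. For FFA in co-culture, 15.2% of all genes were higher without overlap in Caco-2 and 14.9% lower, and 17.4% and 25.2% in HepG2. For co-culture against mono-culture with FFA it was 34.6% in either direction in Caco-2, and 12.8% higher and 14.3% lower in HepG2. With FFA in co-culture, HERPUD1 had a log2 difference of -0.79 in Caco-2 and 2.30 in HepG2, DNAJB9 -0.52 and 2.14, and XBP1 -0.15 and 1.15. SYVN1, whose reads cannot be told from those of FAU, had 0.24 in Caco-2 and -0.31 in HepG2. In co-culture against mono-culture with FFA, HERPUD1 had -1.06 in Caco-2 and 0.84 in HepG2, and DNAJB9 -1.003 in Caco-2 and 0.85 in HepG2.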

How the results depend on the processing

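Each group held 2 libraries, and in HepG2 co-culture with FFA both were shallow, so most members there rest on under 40 reads and small differences could not be detected. The count of members called was 0 under each alternative for FFA in Caco-2 (mono-culture, co-culture, averaged and interaction), for Caco-2 co-culture without FFA and for HepG2 co-culture without FFA. For Caco-2 co-culture with FFA it became 1 with a floor of 10 CPM and with edgeR, and averaged over treatment it became 1 with a floor of 10 CPM, quantile normalization, median-ratio scaling, edgeR, DESeq2 and the replicate block, in each case HERPUD1 (adjusted p of 0.0202, 0.0359, 0.0484, 0.00260, 0.0322 and 0.0484 in that order). Without Caco-2 co-culture FFA replicate 2 the averaged count was 1, EDEM1, so leaving out 1 library gave 0 to 1. Between the lines edgeR called 6 members in mono-culture controls and 6 in co-culture controls, TMM scaling 5 in co-culture controls, and leaving out 1 library gave 2 to 3 in both. The cause was not tested. For the alternatives here and below, the share of all genes called is not given beside the count. A larger count is therefore not read as a result about the members.

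For FFA in HepG2, the median log2 difference of the members fell from 0.51 to 0.034 under TMM scaling, where that of all genes fell from -0.07 to -0.39, and leaving out 1 library gave 0.45 to 0.62. SELENOS with FFA in HepG2 co-culture turned to -0.33 under TMM scaling and -0.061 under median-ratio scaling. In mono-culture 9 members were positive as deposited and 5 under TMM scaling, and in co-culture 7 and 5. Alternatives added after seeing the data were the fits without both HepG2 co-culture FFA libraries, which called 4 members between the lines in each culture, and the HepG2 FFA median without SYVN1.

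Deviations of same-numbered libraries had a mean r of 0.0142 in Caco-2 and 0.00866 in HepG2 over 6 pairs of groups each, and among genes of 100 CPM or more 0.151 (-0.0172 to 0.291) and 0.0529 (-0.103 to 0.121). As not every pair of groups passed 0.1, the numbers were not taken to pair the libraries. The replicate block changed the members called to 1 (HERPUD1) for Caco-2 co-culture averaged over treatment and to 4 for the lines in co-culture controls (SYVN1 added), with no other count moved.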
